A study of Mus musculus with 12 samples.

Results

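The aryl hydrocarbon receptor (AHR) pathway was followed through 7 genes in primary mouse adult fibroblasts (MAFs): the receptor gene Ahr, its partner Arnt, the repressor Ahrr, and the target genes Cyp1a1, Cyp1b1, Tiparp and Aldh3a1. The genes were chosen by name out of the 49315 genes counted, with earlier results of these data known. All 7 were among the 17416 genes with enough counts to be tested. Cyp1a1 drew attention because its level was far higher in the senescent libraries of these same data, so its senescence changes are given as descriptions, with no test. Cyp1a1 also reached the filter on low counts through its senescent libraries alone.

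The MAFs came from the ears of adult female mice, either C57BL/6J wild-type (WT) or Bmal1-/- (KO), which lack the circadian clock activator BMAL1. Control cells underwent a sham procedure, while senescence was induced with 20 Gy of X-rays and further culture. All cells, controls included, were grown at 3% O2, treated with 100 nM dexamethasone, a glucocorticoid that sets the clocks of cultured cells to a common phase, and collected 12 h later. Poly(A) RNA of 3 libraries from each of the 4 groups was sequenced, 12 libraries in all. No source used here says whether the libraries of a group came from separate mice or cultures, so the p-values measure only the spread between these libraries, which may be technical.

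AHR is a transcription factor of the basic helix-loop-helix PAS (bHLH-PAS) family that is switched on by small aromatic ligands, among them combustion products, plant compounds and metabolites of tryptophan. Without ligand it is held in the cytosol by HSP90 chaperones; with ligand it enters the nucleus, pairs with ARNT and binds DNA elements that contain GCGTG. Its classical targets include enzymes that oxidise such ligands and the feedback inhibitors AHRR and TIPARP, and AHR activity is well known in skin. BMAL1 is a bHLH-PAS protein too, and pairs with CLOCK or NPAS2 to bind E-boxes (CACGTG).

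Total counts were between 23923030 and 31736083 per library, which makes 3 counts, used here as a detection floor, equal to 0.0945 to 0.125 CPM (counts scaled to a common library size). The targeted gene Arntl, which encodes BMAL1, was lower in every KO library than in any WT library but was not at 0: it averaged 31.5 ± 1.71 CPM in WT control, 36.1 ± 1.10 in WT senescent, 13.2 ± 1.83 in KO control and 26.6 ± 1.13 in KO senescent cells (SD, n = 3). All 9 fibroblast markers examined were tested, with a summed level of 20020 to 20830 CPM in WT control, 9844 to 10252 in WT senescent, 24978 to 26343 in KO control and 11734 to 12151 in KO senescent libraries. The collagen genes Col1a1, Col1a2 and Col3a1 made up most of these sums. With senescence 5 of the 9 markers passed (adjusted p under 0.05) as higher and 4 as lower in WT cells, where 29.2% and 27% of all tested genes did. In KO cells 3 passed as higher and 5 as lower, where 28.5% and 28.6% of all tested genes did. The 8 chondrocyte markers of the ear cartilage summed to 7542 to 9361, 2116 to 2454, 4999 to 6871 and 682 to 796 CPM in the same order, and none of them was at 0. In bulk RNA, fewer cells of a type and less RNA per cell cannot be told apart, and the part that a changed cell mixture has in the results was not tested.

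The 250 bases upstream of the start are shown for Cyp1a1, which stood out, and for Ahrr and Tiparp, the feedback genes whose responses differed between the genotypes. The sequences are from RefSeq on build GRCm38.p6 and read 5′ to 3′ towards the gene, with GCGTG, or CACGC where the element lies on the other strand, in capitals. The starts are those of RefSeq, and for Cyp1a1 and Tiparp they lie inside the span that GENCODE, used here for coordinates, gives the gene. They cover chr9:57697363-57697612 on the plus strand for Cyp1a1, chr13:74292332-74292581 on the minus strand for Ahrr and chr3:65528197-65528446 on the plus strand for Tiparp.
Cyp1a1: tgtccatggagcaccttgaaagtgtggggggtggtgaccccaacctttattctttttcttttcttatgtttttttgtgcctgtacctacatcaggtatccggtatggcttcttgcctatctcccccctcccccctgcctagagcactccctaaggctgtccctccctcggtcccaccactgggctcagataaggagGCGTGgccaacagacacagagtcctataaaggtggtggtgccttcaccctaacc
Ahrr: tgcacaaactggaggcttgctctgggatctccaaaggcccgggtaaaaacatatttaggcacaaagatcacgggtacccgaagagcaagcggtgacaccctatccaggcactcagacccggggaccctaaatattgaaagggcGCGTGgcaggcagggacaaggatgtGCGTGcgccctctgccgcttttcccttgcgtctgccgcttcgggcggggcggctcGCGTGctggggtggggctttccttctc
Tiparp: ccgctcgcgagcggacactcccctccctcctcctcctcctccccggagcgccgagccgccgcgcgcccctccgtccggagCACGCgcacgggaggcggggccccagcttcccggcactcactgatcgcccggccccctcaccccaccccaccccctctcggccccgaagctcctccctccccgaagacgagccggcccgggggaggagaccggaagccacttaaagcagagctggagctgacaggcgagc

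The search covered 300 bases from 250 before to 50 after the start, on both strands, and 5 of the 7 genes had such a window, the exceptions being Ahr and Aldh3a1. All 5 windows held GCGTG, which is common: 32.4% of 32851 mouse promoter windows of this length had it. Ahrr had 3 matches, beginning 107, 82 and 27 bases before the start, and Cyp1a1 had 1, at 54 bases. Cyp1b1 and Tiparp each had 1 on the opposite strand, at 76 and 170 bases, and Arnt had 1 at 29 bases. The longer form TNGCGTG, which contains the core, was found in Ahrr alone of the 5, as TCGCGTG beginning 29 bases before the start, and in 5.07% of all windows. None of the 5 windows held the E-box CACGTG, present in 7.15% of all windows. A match to these letters is a description of the sequence and not a measured binding site.

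Per length of exon the genes ranged widely, with Cyp1b1 highest and Cyp1a1 lowest in the control groups. Cyp1b1 averaged 89.3 CPM per kb of exon in WT control cells, against 44.8 for Ahr, 12.2 for Arnt, 8.64 for Tiparp, 2.64 for Ahrr, 0.314 for Aldh3a1 and 0.125 for Cyp1a1. In KO senescent cells the mean levels were 188 CPM per kb for Cyp1b1, 40.5 for Ahr, 23.2 for Tiparp, 9.79 for Arnt, 3.92 for Ahrr, 3.57 for Cyp1a1 and 2.20 for Aldh3a1. Cyp1a1 thus lay below Aldh3a1 in both control groups and above it in both senescent groups, while Cyp1b1 stayed the most abundant of the 7.

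**Figure D1:**
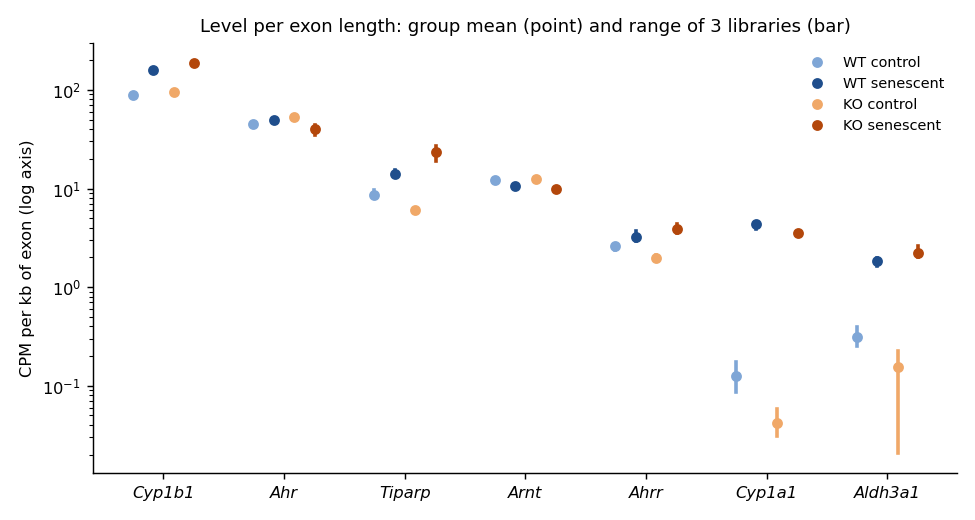
Level of each gene per length of exon in the 4 groups, in CPM per kb of exon on a log axis; the point is the mean and the bar the range of 3 libraries. Cyp1b1 is highest in every group, and Cyp1a1 moves from 0.125 (WT control) and 0.0415 (KO control) to 4.33 and 3.57 in the senescent groups.

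Ahr, the receptor, lies on chromosome 12 (GRCm38, 35497974 to 35535038, minus strand). Its level was 267, 280 and 282 CPM in the WT control libraries, 294, 308 and 310 in WT senescent, 326, 321 and 327 in KO control, and 260, 274 and 215 in KO senescent cells. The receptor was therefore highest in KO control and lowest, with an overlap with WT control, in KO senescent cells. Ahr fell with senescence in KO cells, by 0.38 on the log2 scale (SE 0.06, adjusted p = 3.75e-05). In WT cells the senescent libraries were all above the controls, but the difference of 0.14 (95% confidence interval 0.0027 to 0.27) did not pass (adjusted p = 0.0771). It passed when the fit held WT libraries only (adjusted p = 0.0269) and when KO senescent replicate 3, the lowest library, was left out (adjusted p = 0.0146). Exons of Ahr overlap those of Gm48236, and since the strand setting of the counting is not known here, reads of the 2 genes could not be told apart.

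Arnt, the partner that AHR needs to bind DNA, lies on chromosome 3 (95434388 to 95497240, plus strand). The WT control libraries held 99.6, 95.7 and 98.1 CPM, followed by 83.7, 85.9 and 85.9 in WT senescent, 96.4, 102 and 98.3 in KO control and 81.4, 80.2 and 73.5 in KO senescent libraries. Every senescent library was below every control library, and the control groups overlapped. Arnt fell by 0.20 in WT (SE 0.05, adjusted p = 0.00225), and in KO cells the fall was 0.34 (SE 0.05, adjusted p = 8.9e-06). On library totals alone the WT difference was −0.03 (adjusted p = 0.607), on a scale that places the median of all genes 0.169 higher.

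Ahrr encodes a repressor that competes with AHR for ARNT, and lies on chromosome 13 (74211118 to 74292331, minus strand). Levels were 22.7, 25.9 and 26.1 CPM in WT control, 35.1, 27.8 and 27.5 in WT senescent, 18.4, 20.1 and 17.3 in KO control, and 41.1, 36.3 and 33.6 in KO senescent cells. Ahrr started lowest and ended highest in KO cells, although the senescent groups overlapped in 1 WT library, replicate 1. It rose by 0.99 with senescence in KO (SE 0.10, adjusted p = 6.29e-08) and by 0.28 in WT cells (SE 0.10, adjusted p = 0.0237). The WT change rested on replicate 1 of each group: it was 0.15 (adjusted p = 0.206) without the senescent one and 0.21 (adjusted p = 0.127) without the control one.

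Tiparp encodes a mono-ADP-ribosyltransferase that modifies AHR and limits its activity, and lies on chromosome 3 (65528410 to 65555518, plus strand). WT control libraries were at 34.7, 35.9 and 42.3 CPM and WT senescent ones at 67.2, 57.4 and 56.8. KO control libraries were at 26.4, 27.7 and 25.6 CPM and KO senescent ones at 105, 82.0 and 116. The 4 groups did not overlap, in the order KO control, WT control, WT senescent, KO senescent. Tiparp rose by 1.93 in KO (SE 0.12, adjusted p = 3.74e-08), and its rise in WT was 0.69 (SE 0.12, adjusted p = 0.000415). Exons of Tiparp overlap those of 4931440P22Rik, so reads of the pair could not be told apart.

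Cyp1a1 encodes the cytochrome P450 most often used as a readout of AHR activity, and lies on chromosome 9 (57687928 to 57703824, plus strand). It had 6, 12 and 7 counts in the WT control libraries and 4, 3 and 2 in the KO control libraries, against 379, 324 and 322 in WT senescent and 257, 276 and 301 in KO senescent cells. These were 0.241, 0.489 and 0.316 CPM in WT control, 12.9, 10.9 and 12.4 in WT senescent, 0.160, 0.101 and 0.0859 in KO control, and 9.92, 9.79 and 10.2 in KO senescent libraries. The gene was near the floor of detection in KO control cells, and its senescent libraries lay within a narrow range, so the control counts weigh most in the size of its changes. The senescent level was 34.5 times the control level in WT (95% exact interval 23.2 to 53.6, for counting error only) and 86.3 times in KO cells (45.3 to 189), fitted log2 differences of 5.09 and 6.37. Cyp1a2, its neighbour on chromosome 9 and the other member of the CYP1A subfamily, had 1 count in the 12 libraries together, in WT control replicate 3.

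Cyp1b1 encodes the related P450 that is typical of mesenchymal cells, and lies on chromosome 17 (79701537 to 79715061, minus strand). Its levels were 499, 519 and 547 CPM in WT control, 954, 912 and 933 in WT senescent, 575, 536 and 563 in KO control and 1088, 1115 and 1086 in KO senescent libraries. The control groups overlapped, and all senescent libraries were above them, with KO above WT. Cyp1b1 rose by 0.84 in WT (SE 0.05, adjusted p = 4.92e-12), and its rise in KO was 0.97 (SE 0.05, adjusted p = 3.98e-13).

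Aldh3a1 encodes an aldehyde dehydrogenase of the classical AHR battery, and lies on chromosome 11 (61207537 to 61218421, plus strand). It had 19, 14 and 11 counts in WT control, 93, 110 and 100 in WT senescent, 1, 13 and 10 in KO control and 131, 110 and 115 in KO senescent libraries, or 0.764, 0.570 and 0.497, then 3.16, 3.70 and 3.86, then 0.0400, 0.438 and 0.429, then 5.06, 3.90 and 3.88 CPM. All senescent libraries were above all controls, and KO control replicate 1, with 1 count, lay apart from the other libraries of its group. Aldh3a1 rose by 2.53 in WT (SE 0.33, adjusted p = 1.05e-06). In KO cells it rose by 3.78 (SE 0.36, adjusted p = 1.06e-08), or by 3.28 if KO control replicate 1 was left out.

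**Figure D2:**
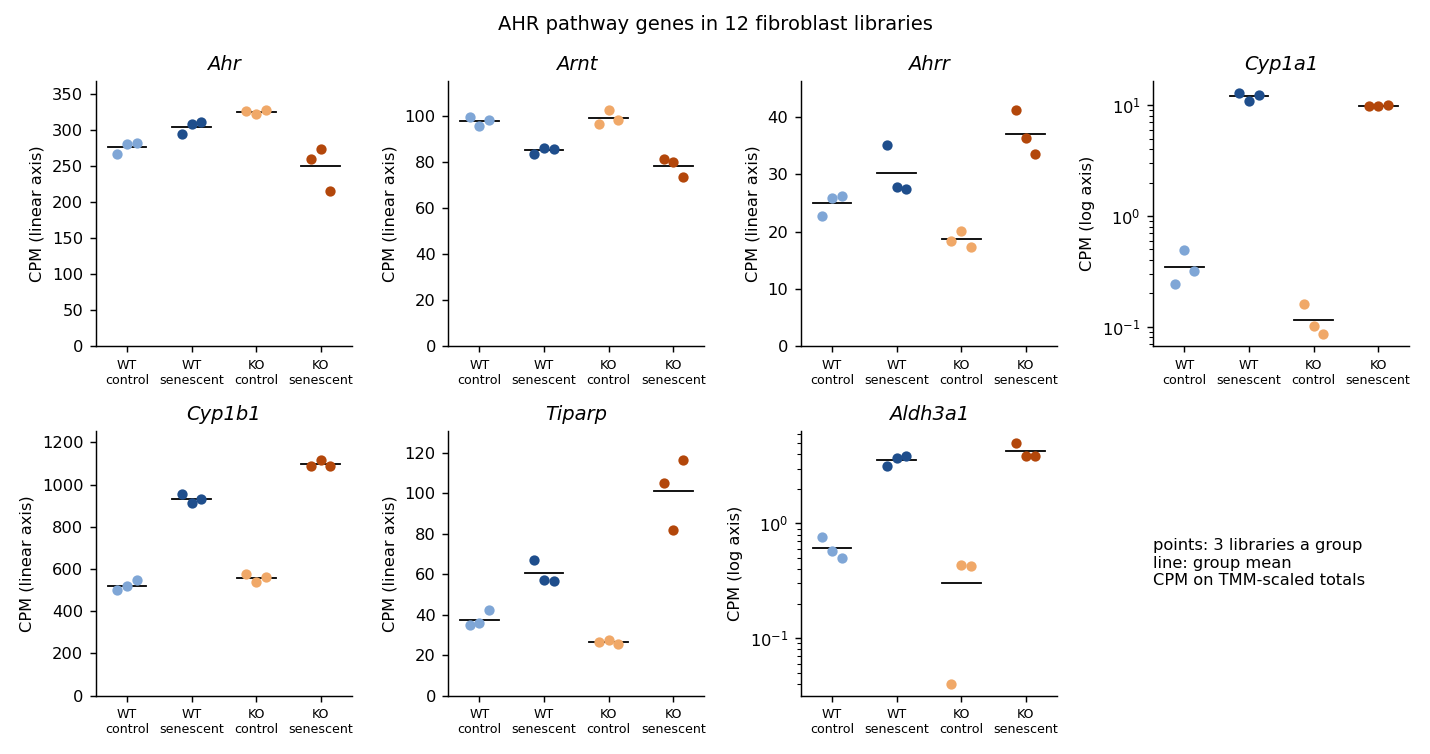
CPM of each gene in every library, with 3 points and their mean (line) per group; Cyp1a1 and Aldh3a1 are on log axes and the others on linear axes from 0. Cyp1a1, Cyp1b1, Tiparp and Aldh3a1 are higher in all senescent than in all control libraries of both genotypes, and Arnt is lower.

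To set these changes against the rest of the transcriptome, a gene was said to pass at an adjusted p under 0.05 and to be called when its log2 fold change also exceeded 1 in size. With senescence in WT cells, 17.4% of all tested genes were called, and of the 6 genes other than Cyp1a1 the call was reached by 1, Aldh3a1. A further 4 passed without being called: Ahrr, Cyp1b1 and Tiparp were higher and Arnt lower, where 29.2% of all tested genes passed as higher and 27% as lower. In KO cells 18.8% of all genes and 2 of the 6, Tiparp and Aldh3a1, were called. All 6 passed in KO cells, 4 higher (Ahrr, Cyp1b1, Tiparp, Aldh3a1) and 2 lower (Ahr, Arnt), where 28.5% and 28.6% of all genes passed in those directions. Groups did not overlap for all 6 genes in either genotype: 5 were higher and 1 lower in WT senescent libraries, where 33.4% and 29.7% of all genes were, and 4 were higher and 2 lower in KO senescent libraries, where 30.8% of all genes were in each direction. Ahrr and Cyp1b1 lay just under the fold threshold in KO cells, at 0.99 and 0.97. Cyp1a1 belongs to the higher genes in both contrasts by its choice. The median log2 change of the 6 genes other than Cyp1a1 was 0.48 in WT and 0.98 in KO cells, and that of all tested genes was 0.025 and −0.0028.

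**Figure D3:**
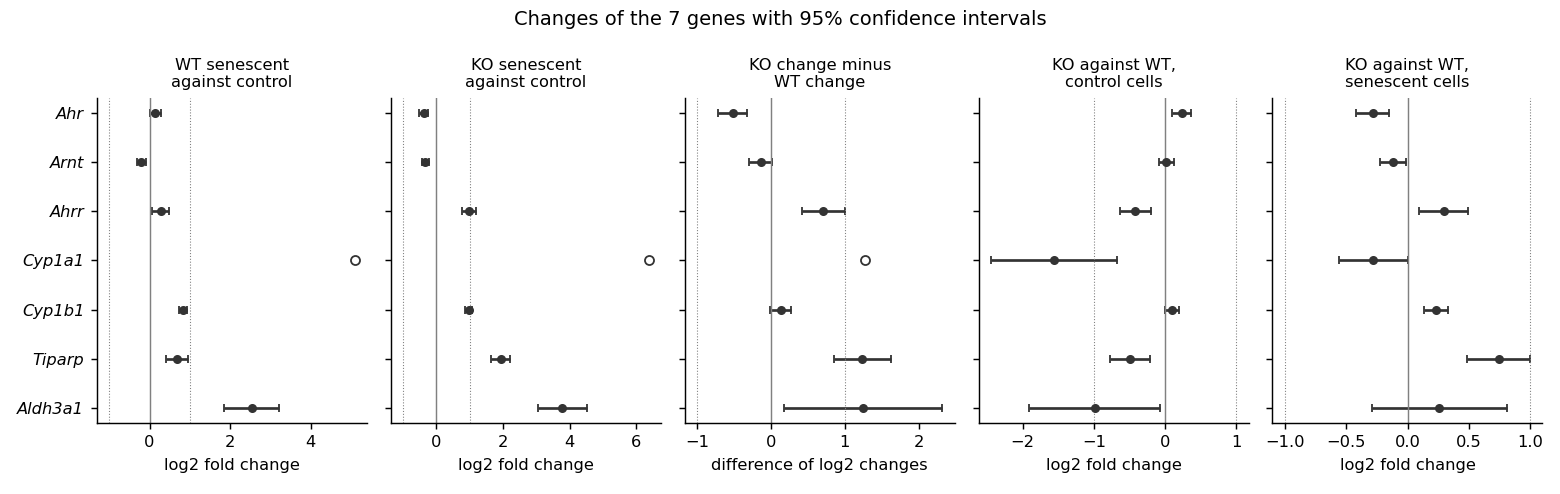
Log2 fold changes of the 7 genes in the 5 comparisons, with 95% confidence intervals; dotted lines mark a log2 change of 1 in either direction. Open circles are the descriptive values of Cyp1a1, 5.09 in WT, 6.37 in KO and 1.28 for their difference, which carry no interval.

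To ask whether the senescence response differed between genotypes, the KO change was set against the WT change in an interaction test, in which 3.66% of all tested genes were called, 9.24% passed as higher and 11.7% as lower. Of the 6 genes other than Cyp1a1, 3 passed: Tiparp and Ahrr with a larger increase in KO cells, and Ahr with a change in the other direction. The difference of log2 changes was 1.24 for Tiparp (95% confidence interval 0.86 to 1.62, adjusted p = 0.00047), the only one of the 6 called. It was 0.71 for Ahrr (0.42 to 1.01, adjusted p = 0.00149) and −0.52 for Ahr (−0.71 to −0.33, adjusted p = 0.000492). These 3 differences passed whichever library was left out, with 1.12 to 1.37 for Tiparp, 0.63 to 0.83 for Ahrr and −0.59 to −0.42 for Ahr.

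The other 3 did not pass the interaction test. For Aldh3a1 the difference was 1.25 (0.17 to 2.32, adjusted p = 0.0937), and 0.75 without KO control replicate 1, the library with 1 count. The differences of Cyp1b1 (0.13, −0.0075 to 0.28, adjusted p = 0.179) and Arnt (−0.14, −0.29 to 0.013, adjusted p = 0.197) had narrower intervals that reached 0. For Cyp1a1, chosen for its senescence changes, their difference of 1.28 is a description and carries no test.

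In control cells, KO was compared with WT to see the pathway without irradiation, and 2.54% of all tested genes were called. Of the 7 genes, 1 was called: Cyp1a1 was lower in KO, by 1.56 on the log2 scale (SE 0.43, adjusted p = 0.0244), which rests on 9 against 25 counts over 3 libraries each, a ratio of 0.330 (95% exact interval 0.136 to 0.732, for counting error only). The low control counts of Cyp1a1 also enter the senescence rise it was chosen for, so this call is not independent of that choice. The call was lost without WT control replicate 2 (adjusted p = 0.183), KO control replicate 2 (0.107) or KO control replicate 3 (0.0964). Ahrr was lower by 0.42 (SE 0.10, adjusted p = 0.01) and Tiparp by 0.50 (SE 0.13, adjusted p = 0.0241), while Ahr was higher by 0.23 (SE 0.06, adjusted p = 0.0199). Of all genes, 8.07% passed as higher and 4.96% as lower.

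These control differences were sensitive to single libraries. That of Tiparp missed the threshold without any 1 of 5 of the 6 control libraries, all but WT control replicate 1 (adjusted p = 0.056 to 0.0945). Ahr missed it without WT control replicate 1 (0.102) or KO control replicate 3 (0.0661), and Ahrr without KO control replicate 3 (0.0584). Aldh3a1 (−0.99, 95% confidence interval −1.91 to −0.07, adjusted p = 0.157) did not pass, and was at −0.49 without KO control replicate 1. Cyp1b1 (0.10, −0.0027 to 0.20, adjusted p = 0.203) and Arnt (0.02, −0.09 to 0.12, adjusted p = 0.872) did not pass either. Over all genes the count of called genes was 442, and 283 or 753 without WT control replicate 1 or 3.

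In senescent cells, none of the 7 genes was called between the genotypes, where 3.48% of all genes were, and 4 passed. Tiparp was higher in KO, by 0.74 (SE 0.12, adjusted p = 0.000628), Cyp1b1 by 0.23 (SE 0.05, adjusted p = 0.00116) and Ahrr by 0.29 (SE 0.10, adjusted p = 0.0328), and Ahr was lower, by 0.28 (SE 0.06, adjusted p = 0.00269). Of all genes 11.9% passed as higher and 11.8% as lower. The Ahrr difference was lost without any 1 of 4 of the 6 senescent libraries (adjusted p = 0.0576 to 0.155). Cyp1a1 was lower in every KO senescent library than in any WT one, but the difference of −0.28 (95% confidence interval −0.56 to 0.0032) did not pass (adjusted p = 0.149). Arnt (−0.12, −0.23 to −0.01, adjusted p = 0.0995) and Aldh3a1 (0.26, −0.29 to 0.81, adjusted p = 0.526) did not pass. Each deposited table held the libraries of 1 genotype, so any difference in handling between the tables cannot be told apart from genotype here.

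Around the 7 genes, the chaperones and coregulators of AHR changed by less than the fold threshold. All 10 listed genes were tested, none was called in any comparison, and with senescence 4 passed as higher and 3 as lower in WT cells, against 2 and 2 in KO cells, where the shares of all genes were 29.2% and 27% in WT and 28.5% and 28.6% in KO, with medians of 0.02 and −0.06. The largest senescence change of the list, in either genotype, was that of Ptges3. It fell by 0.67 in WT (adjusted p = 6.53e-08) and by 0.49 in KO cells (adjusted p = 4.99e-06). The list also includes the HSP90 genes that hold unliganded AHR in the cytosol. Hsp90aa1 fell by 0.31 in WT (adjusted p = 0.0014) and rose by 0.28 in KO cells (adjusted p = 0.00296), a difference of 0.58 (adjusted p = 0.000627). Hsp90ab1 fell by 0.40 in WT (adjusted p = 7.72e-06) and was at −0.10 in KO cells (adjusted p = 0.157), a difference of 0.30 (adjusted p = 0.0156).

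Of 13 further target genes of AHR, 10 were tested, the exceptions being Cyp1a2, Gsta1 and Gsta2. Fgf21 and Ugt1a6b reached the filter on low counts only with the help of their senescent libraries, so their senescence changes are given without a test. Of the other 8, 4 passed as higher and 3 as lower in WT cells, where 29.2% and 27% of all genes did, and 3 and 1 in KO cells, where 28.5% and 28.6% did. Called were 3 of the 8 in WT and 2 in KO cells, against 17.4% and 18.8% of all genes, and the medians were 0.30 and 0.27. Xdh, which encodes the purine enzyme xanthine dehydrogenase, rose from a mean of 63.2 to 169 CPM in WT (1.42, adjusted p = 7.99e-13), against means of 54.5 and 139 in KO (1.35, adjusted p = 1.72e-12). Serpinb2, an inhibitor of plasminogen activators, rose from a mean of 4.22 to 10.4 CPM in WT (1.31, adjusted p = 0.000229). The KO means were 5.23 and 24.3 (2.23, adjusted p = 8.19e-07), and it was higher in KO than in WT senescent cells by 1.22 (adjusted p = 0.000516). Its exons overlap those of Serpinb10.

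Fgf21, a hormone of the fasting response, had 0, 4 and 3 counts in WT control and 19, 9 and 14 in WT senescent libraries, and 4, 8 and 1 against 10, 11 and 23 in KO libraries. Ugt1a6b, a glucuronosyltransferase, had means of 0.403 CPM (control) and 1.27 (senescent) in WT, and of 0.583 and 1.49 in KO cells, and its exons overlap 9 other genes of the locus, so its level is uncertain. Slc7a5, a transporter of large neutral amino acids, tryptophan among them, fell from a mean of 124 to 42.0 CPM in WT (−1.56, adjusted p = 2.05e-08). The KO means were 103 and 58.7 (−0.81, adjusted p = 1.26e-05), and the fall was smaller in KO by 0.75 (adjusted p = 0.00301). Ugdh, which makes the sugar donor for glucuronidation, fell by 0.69 in WT (adjusted p = 6.91e-08) and was at −0.07 in KO cells (adjusted p = 0.406), a difference of 0.62 (adjusted p = 0.000247). Nfe2l2, the gene of the antioxidant regulator NRF2, rose by 0.34 and 0.38 (adjusted p = 9.86e-06 and 2.74e-06). Nqo1, a quinone reductase driven by NRF2 as well as AHR, fell by 0.22 in WT (adjusted p = 0.0039) and was at −0.06 in KO cells (adjusted p = 0.4), so it did not share the direction of Cyp1a1, Cyp1b1 and Aldh3a1.

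The 13 other bHLH-PAS genes, which include the targeted Arntl, were all tested. Hif3a needed its senescent libraries to reach the filter, so its senescence changes are given without a test. It had 3, 4 and 0 counts in WT control and 5, 12 and 6 in WT senescent libraries, and 0, 10 and 1 against 9, 15 and 14 in KO libraries. Of the other 12, 7 passed as higher with senescence in WT cells and 1 as lower, where 29.2% and 27% of all genes did, and 5 and 1 in KO cells, where 28.5% and 28.6% did. Called were 3 in WT and 2 in KO cells, shares near the 17.4% and 18.8% of all genes, and the medians were 0.27 and 0.15. Epas1, which encodes the hypoxia factor HIF2α, another partner of ARNT, rose from a mean of 5.78 to 15.9 CPM in WT (1.45, adjusted p = 1.38e-09), against means of 5.54 and 19.9 in KO (1.83, adjusted p = 2.46e-11). Hif1a, the gene of the hypoxia factor HIF1α, fell by 0.17 in WT (adjusted p = 0.0123) and by 0.13 in KO cells (adjusted p = 0.0455), and Clock was at −0.03 and 0.04 (adjusted p = 0.724 and 0.591). Arnt2, the close relative of Arnt, rose by 0.96 in WT (adjusted p = 5.9e-11) and by 0.26 in KO cells (adjusted p = 0.00185), less in KO by 0.70 (adjusted p = 3.32e-05).

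Within this family the genotypes differed most in Npas2, the paralog of Clock, which was higher in KO by 1.79 in control (adjusted p = 1.91e-08) and by 1.59 in senescent cells (adjusted p = 7.45e-08). Sim2 rose by 1.38 in WT cells (adjusted p = 0.000281) and was at −0.02 in KO cells (adjusted p = 0.949), where the control level was already higher by 1.63 (adjusted p = 0.000406), and it was the only gene of the 4 lists called in the interaction (−1.41, adjusted p = 0.0107). Npas3 rose in WT cells by 1.03 (adjusted p = 0.00466) and was at 0.56 in KO cells (adjusted p = 0.107). Among senescent cells, Sim1 was lower in KO by 1.11 (adjusted p = 5.38e-05). Arntl itself rose with senescence in KO cells by 1.02 (SE 0.09, adjusted p = 1.96e-09).

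Of 10 enzymes of tryptophan breakdown that can supply AHR ligands, 8 were tested, without Tdo2 and Aadat. Ido1 and Ido2 reached the filter only with their senescent libraries, and their senescence changes are given without a test. Of the other 6, 1 passed as higher and 1 as lower in WT cells, where 29.2% and 27% of all genes did, and 0 and 3 in KO cells, where 28.5% and 28.6% did, with medians of −0.18 and −0.66. None of these 6 passed the interaction test, where 9.24% of all genes passed as higher and 11.7% as lower. Ido2, a paralog of the rate-limiting dioxygenase, had 3, 1 and 6 counts in WT control and 18, 20 and 19 in WT senescent libraries, and 3, 4 and 5 against 19, 21 and 30 in KO libraries. Ido1 had 0, 4 and 1 counts in WT control and 5, 4 and 16 in WT senescent libraries, which overlapped. In KO libraries Ido1 had 1, 3 and 4 counts in control and 6, 13 and 11 in senescent cells. Kynu, the kynureninase gene, fell in KO cells from 1.19 to 0.468 CPM (−1.34, adjusted p = 0.00904) and was at −0.13 in WT cells (adjusted p = 0.834). Kyat1 and Kyat3 encode transaminases that make kynurenic acid. Kyat1 rose by 0.69 in WT (adjusted p = 0.00145) and was at 0.27 in KO cells (adjusted p = 0.181), and Kyat3 fell by 0.72 in WT (adjusted p = 0.000682), with −0.80 in KO cells (adjusted p = 0.000373).

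**Figure D4:**
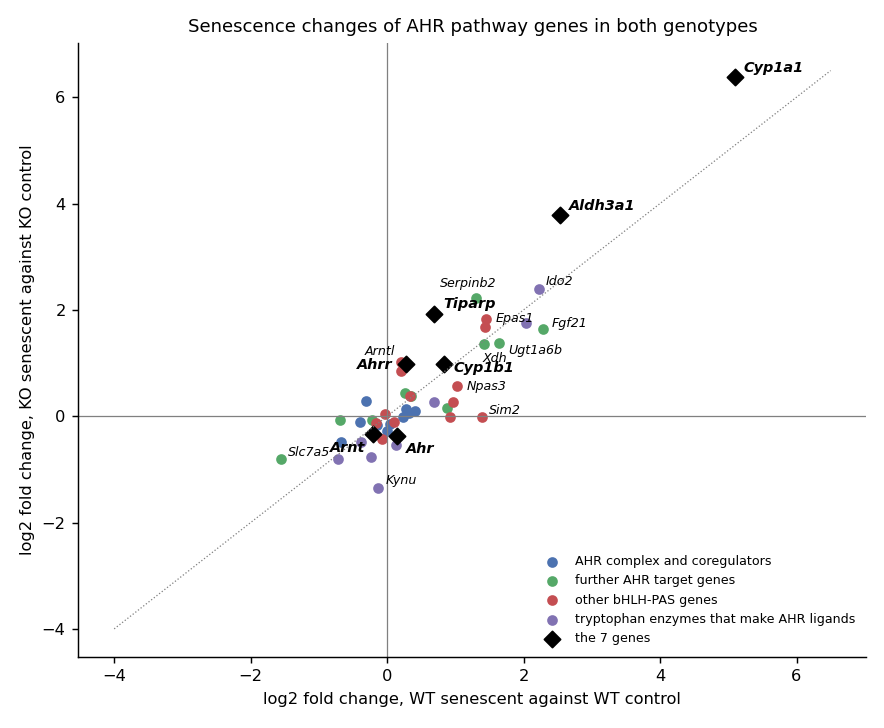
Senescence change in KO cells against that in WT cells (log2 fold changes) for the 7 genes (diamonds) and the tested genes of the 4 related lists (points, coloured by list). The dotted line marks equal changes, and genes of the lists called in either genotype are named. Fgf21, Ugt1a6b and Ido2 are named as well, but their values are descriptions without a test, since their senescent libraries were needed to reach the filter. Cyp1a1, Aldh3a1, Tiparp and Ahrr lie above the line, and Slc7a5 is the one listed gene called as lower in WT.

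The genes whose levels followed Cyp1a1 most closely over the 12 libraries were sought among 12685 tested genes, by the smallest root mean square difference of log2 CPM after centring each gene on its mean. The nearest was Wif1, a secreted WNT inhibitor, with a difference of 0.442 (Pearson's r = 0.987), followed by Esm1 (0.495, r = 0.986), a proteoglycan gene, and Ces2e (0.508, r = 0.982), a carboxylesterase gene. Cyp2f2 (0.656, r = 0.974), another P450 gene, was also among the 5 nearest. The likeness reflects mainly the step between control and senescent groups, which all 12 points share, and carries no p-value. Mean levels of Wif1 were 0.477 CPM in WT control, 16.5 in WT senescent, 0.389 in KO control and 18.7 in KO senescent cells. Cyp2f2 averaged 0.111, 5.84, 0.0716 and 2.51 CPM in the same order, and, like Cyp1a1, had its highest mean in WT senescent cells. Ces2e averaged 0.696, 10.8, 0.138 and 17.2 CPM and had its highest mean in KO senescent cells.

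**Figure D5:**
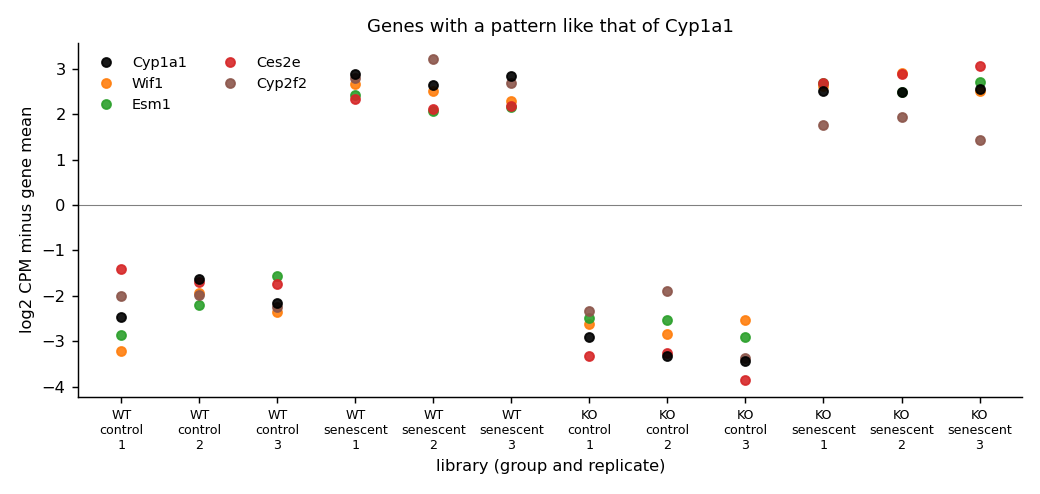
Log2 CPM minus the gene's mean over the 12 libraries, for Cyp1a1 and 4 of the 5 genes with the most similar pattern; each point is 1 library. All 5 genes shown lie below 0 in the 6 control libraries and above 0 in the 6 senescent libraries.

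AHR targets are also expressed by other cells of the skin, so markers of those cells were read beside them. The 9 keratinocyte markers, 5 of them tested, summed to 99.7 to 112 CPM in WT control, 61.6 to 71.0 in WT senescent, 72.1 to 77.2 in KO control and 62.1 to 75.4 in KO senescent libraries. None of the 9 was at 0 in a whole group, but Dsg3 was at 3 counts or fewer in every library. Krt5, a defining marker, averaged 1.37 CPM in WT control and 5.15 in WT senescent cells, and 0.942 and 5.56 in KO cells, whereas Krt14, its partner, averaged 0.150 and 0.0451 CPM in WT and 0.195 and 0.156 in KO cells. Trp63 averaged 8.16 and 10.0 CPM in WT and 8.39 and 3.37 in KO cells. Most of the sum in every group was Itga6, an integrin gene, whose mean was lowest in WT senescent cells, at 46.1 CPM. Summed levels were 8.44 to 16.1 CPM for 7 macrophage markers, 2.21 to 8.84 for 6 endothelial markers and 6.24 to 14.1 for 6 melanocyte markers over all libraries. Muscle markers summed to 16.6 to 59.9 CPM, with Myog at 0 in both control groups, and adipocyte markers to 31.5 to 70.7 CPM, with Cidec at 0 in WT control cells. The part of such cells in the levels of the 7 genes was not tested.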

How the data were processed

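RNA-seq libraries were made from poly(A) RNA of MAFs with a NEBNext Ultra II kit. The authors trimmed reads with Trimmomatic 0.36, aligned them to GRCm38 with STAR 2.5.2b and counted unique reads in exons with featureCounts, and deposited raw counts per Ensembl gene in 2 tables, 1 per genotype. The annotation release and the strand setting are not given in the sources used here. Reads shared by paralogs were dropped by that counting, which can lower multigene families such as Ugt1a.

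The tables were joined by gene identifier, and 48970 of 49315 identifiers were matched to symbols and coordinates in GENCODE M21 (GRCm38). Counts of the 12 libraries were fitted together in edgeR 4.0.16 (R 4.3.3, limma 3.58.1) with TMM factors, filterByExpr, 1 mean per group and the robust quasi-likelihood F-test, and the 17416 p-values were adjusted together (Benjamini-Hochberg). Genes passed at an adjusted p under 0.05 and were called with an absolute log2 fold change over 1, the thresholds in the study's methods, which used DESeq2; DESeq2 1.42.0 was run as an alternative. SEs were the absolute log2 fold change over the square root of F. CPM used TMM-scaled totals, and levels per kb used merged exon length. TMM factors were 0.926 to 0.967 in control and 1.04 to 1.074 in senescent libraries. Intervals on counts are exact and cover counting error only. No libraries of a group agreed within sampling noise (chi-square per degree of freedom 3.206 to 19.5). The fit was tested on simulated data.

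The genes and lists were chosen with earlier results of these data known. The text names the 7 genes, the genes of the 4 lists called in any comparison, the 2 genes of highest mean CPM of each list described, and the 5 genes most like Cyp1a1 with a mean of at least 1 CPM, leaving out the 7 and predicted genes; 1 of these 5 is not reported here. Aside from this rule, Cyp1a2, Nqo1, Arnt2, Ptges3, Hif3a, Ido1 and the markers are named for their roles or values, chosen after these were seen. Fgf21, Ugt1a6b and Ido2 met the thresholds for a call with senescence, but these changes carry no test here. Alternatives were DESeq2 size factors, no filter, DESeq2, the replicate number as a block, each genotype alone, each library left out and, chosen after seeing the data, library totals without TMM.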

Additional observations from a re-analysis of the deposited data

Results flagged for a closer look

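The difference in senescence response between KO and WT cells was read as a test for all of the 7 genes but Cyp1a1. It passed for 3 of them (edgeR quasi-likelihood test, adjusted over all genes). Of all tested genes, 9.24% passed this test as higher and 11.7% as lower. Tiparp rose more in KO cells, by 1.24 on the log2 scale (adjusted p = 0.00047), and all 3 libraries of each KO group lay outside the range of the matching WT group. Ahrr rose more in KO cells, by 0.71 (adjusted p = 0.00149). Ahr differed by −0.52 (adjusted p = 0.000492), being lower in senescent KO libraries than in KO control libraries in 3 of 3 and higher in WT senescent than in WT control libraries in 3 of 3, although the WT change alone did not pass.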

How the results depend on the processing

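Of 630 values of single genes under all alternatives, 601 kept their direction and side of the threshold, 8 newly passed, 19 no longer passed and 2 changed sign. The senescence changes of Cyp1a1 carry no test and were counted as kept when they shifted by less than the spread of its libraries. The 8 include values for the difference of the Cyp1a1 changes, which is a description here. The 2 that changed sign were Arnt between KO and WT control cells, which was 0.02 and became −0.0017 on library totals and −0.0047 without KO control replicate 2 (−0.0047 to 0.039 over all left-out libraries). On library totals, where the median of all genes lies higher by 0.169 (WT) and 0.153 (KO) with senescence, the genes called numbered 2 in WT and 4 in KO cells in place of 1 and 2, Ahr in WT was at 0.31 (adjusted p = 0.000246), Arnt between senescent groups at −0.16 (adjusted p = 0.0243) and Ahrr between them at 0.26 (adjusted p = 0.0556). With DESeq2 the interaction calls numbered 2 in place of 1, with Aldh3a1 at 1.29 (adjusted p = 0.0391), and Cyp1b1 passed at 0.17 (adjusted p = 0.0372). Leaving out 1 library kept 1 interaction call among the genes other than Cyp1a1, that of Tiparp. The difference of the Cyp1a1 changes carries no test and is left out of this count. Calls numbered 0 to 1 between control groups and 2 to 3 with senescence in KO cells. In the 4 lists there were 1 to 3 interaction calls, and 3 arose without KO control replicate 1.

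Deviations of same-numbered libraries from their group means had correlations of −0.125 to 0.127 over 18 pairs, and 6 of 12 libraries correlated best with their own number. With 3 libraries per group, this cannot tell whether the numbers pair the samples, and the main fit did not pair them. With the replicate number as a block, the calls among the genes stayed at 1 in WT, 2 in KO, 1 in the interaction, 1 between control and 0 between senescent groups. Depth limits Cyp1a1, Aldh3a1, Fgf21, Ugt1a6b, Hif3a, Ido1 and Ido2, whose control libraries hold few counts. It also limits Sim2, with 18, 14 and 10 counts in WT control libraries, and Npas3, with 27, 35 and 18 there. Kynu had 12, 17 and 10 counts in KO senescent libraries.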
